A study of Mus musculus with 8 samples.

Results

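The genes that equip neurons to make, store and take back monoamine transmitters were examined in embryonic mouse brains after maternal choline deficiency. They are 9 genes chosen by name: *Th*, *Slc6a3*, *Slc18a2*, *Nr4a2*, *Pitx3*, *Tph2*, *Fev*, *Slc6a4* and *Dbh*. All 9 were found among the 33971 genes of the deposited table, and all 9 had enough counts to be among the 19367 genes tested. The brains came from E14.5 wild-type embryos whose wild-type dams ate a choline-deficient diet (CDD, 4 brains) or a normal chow diet (ND, 4 brains). Whole brains were used, and their polyadenylated RNA was sequenced in bulk. The diet began with time-mating according to the series' design and the methods, whereas a supplementary legend places its start earlier than mating. How many dams and litters the brains came from is not stated, so p-values measure only the spread between these 8 brains. Expression is given as CPM, the count scaled to the size of the library, and log2 fold changes are CDD over ND.

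Monoamine neurons are few and lie deep in the brain, with dopamine neurons mainly in the ventral midbrain and hypothalamus, serotonin neurons in the raphe of the hindbrain, and noradrenaline neurons in the locus coeruleus and other hindbrain groups. Each kind is born under its own transcription factors, which then switch on a shared plan. A rate-limiting hydroxylase begins the synthesis of the transmitter. The vesicular transporter loads the transmitter into vesicles, and a plasma membrane transporter takes it back from the synapse. At mid-gestation these neurons are young and their axons are still growing into the forebrain. In bulk RNA, fewer cells of a type and less RNA per cell cannot be told apart.

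Of the 9 genes, 0 were called higher and 1, *Slc6a3*, was called lower in CDD brains at an adjusted p under 0.05 in edgeR's quasi-likelihood test. Over all genes tested, 8.83% were called, 4.24% higher and 4.59% lower, so 1 of 9 is near the background. At an unadjusted p under 0.05 there were 2 of the 9, *Slc6a3* and *Slc18a2*, where the background is 23.9%. The diets overlapped for each of the 9 genes, while they did not overlap in 15% of all genes tested. The log2 fold change was above 0 for 4 genes and below 0 for 5. Its median over the 9 genes was -0.09, beside -0.0038 over all genes tested. The single call, that of the dopamine transporter gene, was kept in 3 of 8 fits with a brain left out, and without CDD replicate 2 the 1 member called was *Slc18a2* instead.

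**Figure D1:**
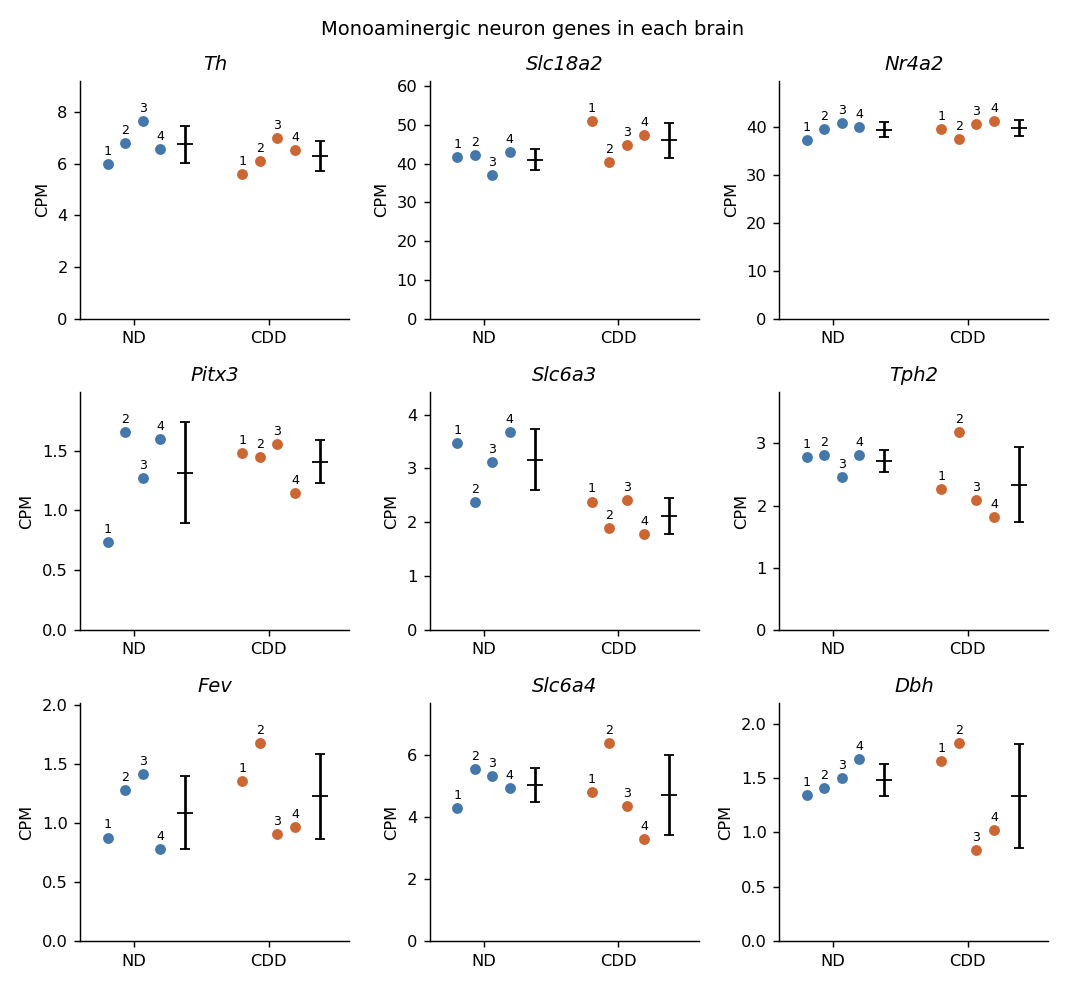
Level of each of the 9 genes in CPM (linear axes from 0) in the 4 ND and the 4 CDD brains, numbered by replicate, with the mean and SD of each diet beside the points. The CDD points of *Slc6a3* sit between 1.78 and 2.42 CPM and 3 of the ND points lie above them, while 3 of the CDD points of *Slc18a2* lie above all ND points and 3 of those of *Tph2* below them.

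*Th* encodes tyrosine hydroxylase, the rate-limiting enzyme of dopamine and noradrenaline synthesis. The authors list it on chromosome 7, 142446489 to 142484865, minus strand (ENSMUSG00000000214), on a genome build that is not named. Its promoter and those of *Slc6a3* and *Tph2* are shown because these 3 genes mark the catecholamine and serotonin programmes. *Slc6a3*, the dopamine transporter gene, was also the 1 gene of the 9 called in the fit to all brains. The sequences are the 250 bases before each gene's start in RefSeq on GRCm38.p6, a build whose positions differ from those of the deposited table. Capitals mark a match to 1 of 6 motifs searched on both strands. For monomers of Nr4a2 the site searched was AAAGGTCA. For Pitx factors it was the bicoid-type letters TAATCC. For Fev and the other ETS factors it was CCGGAA. The GATA-type letters were AGATAA. The cyclic AMP response element (CRE) was TGACGTCA. The paired-type homeodomain letters were TAATTA.
Th, chr7:142899996-142900245, minus strand: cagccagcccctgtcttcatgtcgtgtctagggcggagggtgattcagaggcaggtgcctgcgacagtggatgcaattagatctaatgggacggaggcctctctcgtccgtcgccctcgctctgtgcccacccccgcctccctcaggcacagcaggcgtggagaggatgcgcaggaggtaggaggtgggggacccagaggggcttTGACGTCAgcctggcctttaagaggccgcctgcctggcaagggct
Slc6a3, chr13:73536497-73536746, plus strand: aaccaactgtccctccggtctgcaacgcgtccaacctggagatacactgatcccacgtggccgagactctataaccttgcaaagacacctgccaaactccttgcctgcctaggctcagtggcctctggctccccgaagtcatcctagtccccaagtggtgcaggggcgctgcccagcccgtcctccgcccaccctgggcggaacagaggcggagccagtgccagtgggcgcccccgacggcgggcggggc
Tph2, chr10:115185023-115185272, minus strand: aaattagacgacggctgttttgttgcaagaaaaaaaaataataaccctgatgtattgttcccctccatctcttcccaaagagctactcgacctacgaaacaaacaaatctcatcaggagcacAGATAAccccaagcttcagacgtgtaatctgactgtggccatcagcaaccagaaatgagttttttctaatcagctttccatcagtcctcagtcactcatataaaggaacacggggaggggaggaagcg

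The *Th* window held a CRE that began 45 bases before the start, a sequence present in 1.55% of the 32851 promoter windows of the same length. In the *Tph2* window a GATA-type match began 128 bases before the start, and 9.99% of all windows hold one. *Slc18a2* and *Fev* held a GATA-type match as well, and *Fev* also a homeodomain match, which 4.84% of windows hold. The *Slc6a3* window held 0 matches, as did those of *Nr4a2*, *Pitx3*, *Slc6a4* and *Dbh*. For the other motifs the shares of all windows were 1.34% for the Nr4a2 site, 6.25% for the Pitx site and 12.0% for the ETS site, with 0 of the 9 members matched. GC content was 43.6% in the *Tph2* window, 64.4% in that of *Th* and 66.0% in that of *Slc6a3*, where the median window has 52.4%. These matches describe the letters of the window and are not shown to be bound.

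*Th* was at 5.62, 6.09, 6.99 and 6.52 CPM in CDD replicates 1 to 4 and at 5.97, 6.78, 7.66 and 6.55 CPM in ND replicates 1 to 4. The lowest brain was a CDD brain and the highest an ND brain, with the rest interleaved. CDD brains averaged 6.30 ± 0.589 and ND brains 6.74 ± 0.703 CPM (SD, n = 4 each). The log2 fold change was -0.09 (standard error 0.11, 95% interval -0.32 to 0.13, edgeR's adjusted p = 0.651), a difference within the spread between brains.

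*Slc6a3* encodes the dopamine transporter, which returns released dopamine to the neuron and is among the most selective markers of midbrain dopamine neurons. It lies on chromosome 13, 73684866 to 73726791, plus strand, in the authors' table (ENSMUSG00000021609). It was at 2.38, 1.88, 2.42 and 1.78 CPM in CDD replicates 1 to 4, from 79, 65, 104 and 59 counts. In ND replicates 1 to 4 it was at 3.48, 2.38, 3.12 and 3.68 CPM, from 119, 76, 108 and 127 counts. ND replicates 1, 3 and 4 lay above every CDD brain, while ND replicate 2 lay among the CDD brains, just below CDD replicates 1 and 3. CDD brains averaged 2.12 ± 0.332 and ND brains 3.17 ± 0.575 CPM (SD, n = 4 each). *Slc6a3* fell by 0.58 on the log2 scale (standard error 0.17, edgeR's adjusted p = 0.0358), a level 0.670 times that of ND brains with an interval of 0.527 to 0.852.

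The call of *Slc6a3* was not kept in every fit with a brain left out. With each brain left out in turn, its log2 fold change stayed between -0.69 and -0.50, and the call held in 3 of 8 fits. It was lost without CDD replicate 2 (edgeR's adjusted p = 0.0840), CDD replicate 4 (0.0753), ND replicate 1 (0.114), ND replicate 3 (0.101) or ND replicate 4 (0.132). Without ND replicates 1, 3 or 4 the number of all genes called also fell, from 1710 to 688, 471 and 615. In the fits with a brain left out that lost the call, the log2 fold change was -0.52 without CDD replicate 2 and -0.51 without CDD replicate 4. It was -0.53 without ND replicate 1, -0.59 without ND replicate 3 and -0.50 without ND replicate 4, beside -0.58 with all brains. With all brains *Slc6a3* was called in 6 of 7 other settings and not with limma-voom, where the adjusted p was 0.0549. The direction was the same in all of these fits, with a log2 fold change between -0.69 and -0.50.

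**Figure D2:**
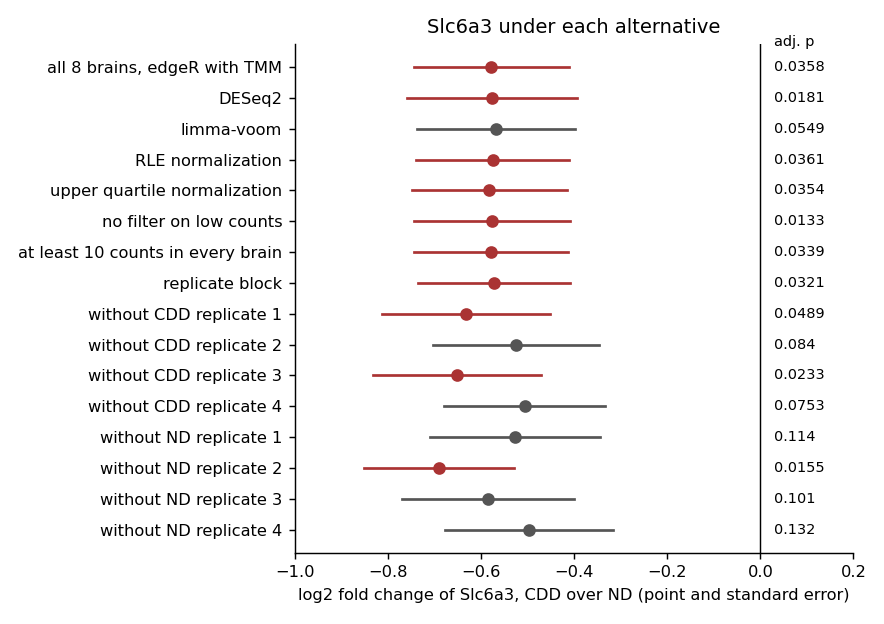
Log2 fold change of *Slc6a3*, CDD over ND, with its standard error in the fit to all 8 brains, under 7 other settings and with each brain left out, and the adjusted p at the right. Red marks fits in which the gene was called. Every point lies between -0.69 and -0.50, and the fits without CDD replicates 2 or 4 or ND replicates 1, 3 or 4 and the limma-voom fit are not called.

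The transporter was also set against *Th*, which dopamine neurons express together with it. For every 100 *Th* counts there were 42.5, 31.0, 34.6 and 27.3 *Slc6a3* counts in CDD replicates 1 to 4. In ND replicates 1 to 4 there were 58.3, 35.0, 40.8 and 56.2. The diets overlapped in this ratio, because ND replicates 2 and 3 lay below CDD replicate 1. The ratio is a description, since *Slc6a3* is in both measures. Over the 8 brains, *Th* and *Slc6a3* gave no relation past the test (Pearson's r = 0.17, exact permutation p = 0.680; Spearman's rho = 0.17, exact p = 0.703; adjusted p = 0.860 and 0.938 over 36 pairs). Without the pair of brains farthest from the median of *Th*, r was -0.13, and without the pair farthest from the median of *Slc6a3* it was 0.57. The relation thus depended on which brains were used.

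Markers of cell state also differed between these brains. The summed level of 8 neural progenitor genes was 1655 to 1985 CPM in CDD and 1382 to 1526 CPM in ND brains, without overlap. Of all single genes tested, 15% did not overlap between the diets. Of the 8 progenitor genes, 5 were called higher and 0 lower, where 4.24% of all genes were called higher. The sum over 11 genes of postmitotic neurons was 6312 to 6973 CPM in CDD and 6451 to 6723 CPM in ND brains. Of these 11 genes, 0 were called higher and 3 lower, where 4.59% of all genes were called lower. The sum was mostly *Tubb3*, *Dcx* and *Map2*, which were named after their values were seen and were not called. The sum over 9 midbrain and isthmus genes was 117 to 142 CPM in CDD and 108 to 126 CPM in ND brains, with 0 called. The part of progenitor content in the level of *Slc6a3* was not tested.

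*Slc18a2* encodes the vesicular monoamine transporter, which loads dopamine, noradrenaline and serotonin alike into vesicles. It lies on chromosome 19, 59249328 to 59284444, plus strand (ENSMUSG00000025094), and was at 51.1, 40.4, 44.9 and 47.5 CPM in CDD replicates 1 to 4. In ND replicates 1 to 4 it was at 41.8, 42.3, 37.0 and 42.9 CPM. CDD replicates 1, 3 and 4 lay above every ND brain and CDD replicate 2 lay among them. CDD brains averaged 46.0 ± 4.49 and ND brains 41.0 ± 2.72 CPM (SD, n = 4 each), and the log2 fold change was 0.17 (standard error 0.068, edgeR's adjusted p = 0.138). It passed the threshold in the fit without CDD replicate 2 (log2 fold change 0.22, edgeR's adjusted p = 0.0445) and in 0 of the other fits. A long non-coding RNA gene on the opposite strand, *Gm29261*, overlaps it and had 0 to 4 counts in each brain.

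*Nr4a2* and *Pitx3* encode transcription factors needed for the dopamine neurons of the midbrain, and *Nr4a2* is used in other neurons too. *Nr4a2* (ENSMUSG00000026826, chromosome 2, 56996842 to 57014015, minus strand) was at 39.6, 37.6, 40.7 and 41.4 CPM in CDD replicates 1 to 4 and at 37.4, 39.7, 41.0 and 40.1 CPM in ND replicates 1 to 4. The diets covered almost the same range, with a log2 fold change of 0.01 (95% interval -0.10 to 0.12, edgeR's adjusted p = 0.931). *Pitx3* (ENSMUSG00000025229, chromosome 19, 46124124 to 46136765, minus strand) was at 1.48, 1.45, 1.56 and 1.15 CPM in CDD replicates 1 to 4 and at 0.731, 1.66, 1.27 and 1.59 CPM in ND replicates 1 to 4. ND replicate 1 was the lowest, at 25 counts (exact Poisson interval 16.2 to 36.9, which covers counting error only), and the other brains lay between 1.15 and 1.66 CPM. Its log2 fold change was 0.11 with a wide interval, -0.37 to 0.58 (edgeR's adjusted p = 0.830). The gene *Elovl3* meets it at one end on the opposite strand and had 0 to 10 counts.

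**Figure D3:**
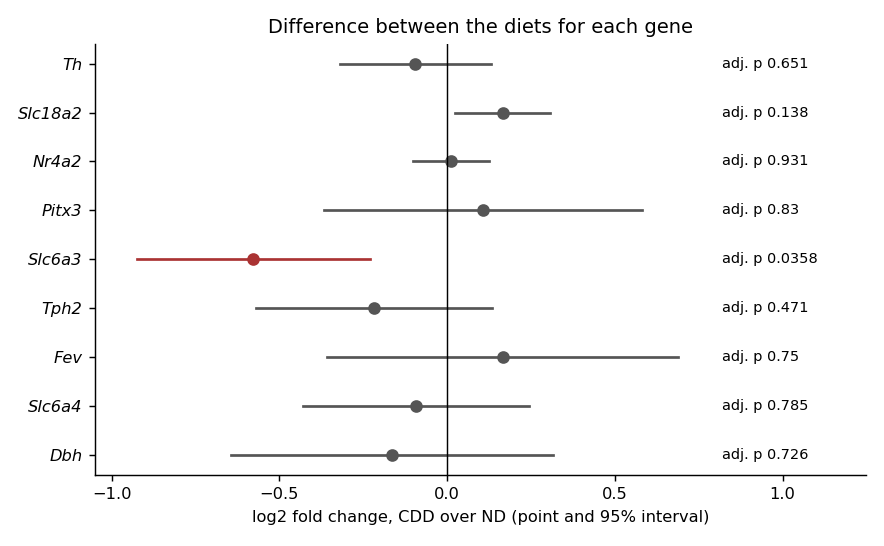
Log2 fold change of each of the 9 genes, CDD over ND, with its 95% interval from edgeR's fit and the adjusted p at the right. The interval of *Slc6a3* (-0.92 to -0.23, red) and that of *Slc18a2* (0.02 to 0.31) lie to one side of 0, and the others include 0.

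In the serotonin neurons, *Tph2* encodes the neuronal tryptophan hydroxylase, the rate-limiting enzyme of serotonin synthesis. *Tph2* (ENSMUSG00000006764, chromosome 10, 114914546 to 115020927, minus strand) was at 2.26, 3.19, 2.09 and 1.81 CPM in CDD replicates 1 to 4 and at 2.78, 2.81, 2.46 and 2.81 CPM in ND replicates 1 to 4. CDD replicates 1, 3 and 4 lay below every ND brain, but CDD replicate 2 was the highest of all 8. CDD brains averaged 2.34 ± 0.596 and ND brains 2.72 ± 0.173 CPM (SD, n = 4 each). The log2 fold change was -0.22 (standard error 0.17, edgeR's adjusted p = 0.471), and -0.40 without CDD replicate 2 (edgeR's adjusted p = 0.135), so the gene was not called in either fit.

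*Slc6a4* encodes the serotonin transporter, which some other embryonic neurons such as thalamic ones also make for a time. *Slc6a4* (ENSMUSG00000020838, chromosome 11, 76889429 to 76923166, plus strand) was at 4.83, 6.40, 4.37 and 3.29 CPM in CDD replicates 1 to 4 and at 4.30, 5.56, 5.32 and 4.96 CPM in ND replicates 1 to 4. CDD replicate 2 was again the highest and CDD replicate 4 the lowest, with the ND brains between them. Its log2 fold change was -0.09 (95% interval -0.43 to 0.24, edgeR's adjusted p = 0.785). The summed level of 8 thalamus genes was 591 to 682 CPM in CDD and 553 to 575 CPM in ND brains, without overlap. Of all single genes tested, 15% did not overlap between the diets. Of the 8 thalamus genes, 3 were called higher and 0 lower, where 4.24% of all genes were called higher. The part of thalamic cells in the level of *Slc6a4* was not tested.

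*Fev* encodes Pet1, the ETS transcription factor that defines serotonin neurons. *Fev* (ENSMUSG00000055197, chromosome 1, 74920668 to 74924578, minus strand) was at 1.36, 1.68, 0.906 and 0.965 CPM in CDD replicates 1 to 4 and at 0.878, 1.28, 1.42 and 0.783 CPM in ND replicates 1 to 4. Both diets held high and low brains, and the log2 fold change was 0.16 (95% interval -0.36 to 0.69, edgeR's adjusted p = 0.750). The interval is wide, with 27 to 58 counts in each brain.

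*Dbh* encodes dopamine beta-hydroxylase, which turns dopamine into noradrenaline. *Dbh* (ENSMUSG00000000889, chromosome 2, 27055245 to 27073212, plus strand) was at 1.66, 1.83, 0.836 and 1.03 CPM in CDD replicates 1 to 4 and at 1.35, 1.41, 1.5 and 1.68 CPM in ND replicates 1 to 4. The CDD brains split around the ND brains, with replicates 3 and 4 below all of them and replicate 2 above. CDD brains averaged 1.34 ± 0.480 and ND brains 1.48 ± 0.147 CPM (SD, n = 4 each), and the log2 fold change was -0.16 (95% interval -0.64 to 0.32, edgeR's adjusted p = 0.726).

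The serotonin and noradrenaline genes shared 1 feature that the choice of genes did not use. *Tph2*, *Fev*, *Slc6a4* and *Dbh* were all highest in CDD replicate 2, and this brain was the lowest for 0 of the 9 genes. CDD replicate 4 was lowest for *Tph2*, *Slc6a4* and *Slc6a3*. For *Dbh*, *Slc6a4* and *Tph2* the SD of the CDD brains was 35.9%, 27.4% and 25.5% of the mean, against 9.87%, 10.9% and 6.36% in ND brains. Counting error alone gives 14.3%, 7.68% and 10.7% for these genes. For *Fev* the SD was alike in both diets, 29.5% in CDD and 28.2% in ND brains. It was larger in ND brains for *Pitx3* (32.2%, against 12.8% in CDD brains) and *Slc6a3* (18.2%, against 15.7%). A difference in spread between the diets was not tested. For *Nr4a2*, with at least 1269 counts in every brain, the SD was 4.18% in CDD and 3.89% in ND brains.

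CDD replicate 2 also stood apart in genes of the caudal hindbrain and cord. The summed level of 10 Hox genes was 114.7 CPM in this brain and 0.116 to 2.45 CPM in the other CDD brains, and it was 0.0938 to 0.694 CPM in ND brains. Of these, *Hoxa5* and *Hoxb5*, named after their values were seen, were at 33.1 and 23.8 CPM in CDD replicate 2. Both were at 0 CPM in every other brain. How much hindbrain each brain sample held is not stated. The part of hindbrain content, and of this Hox signal, in the levels of the serotonin and noradrenaline genes was not tested. Without CDD replicate 2, the log2 fold changes were -0.40 for *Tph2*, -0.27 for *Slc6a4*, -0.35 for *Dbh* and -0.02 for *Fev*, the last reversed in sign, and 0 of these 4 genes were called.

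**Figure D4:**
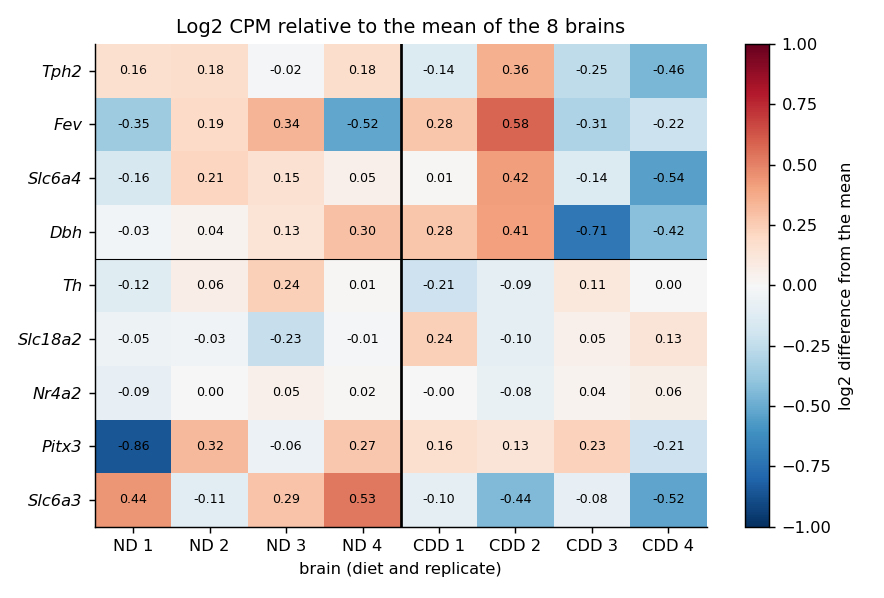
Log2 CPM of each gene in each brain relative to the mean of all 8 brains, with ND brains at the left and CDD brains at the right of the vertical line. *Tph2*, *Fev*, *Slc6a4* and *Dbh* are at 0.36, 0.58, 0.42 and 0.41 in CDD replicate 2, while *Slc6a3* is at -0.44 in the same brain.

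Over the 8 brains, 20 of the 36 pairs among the 9 genes had a Pearson's r above 0. The strongest was *Tph2* with *Slc6a4*, both genes of serotonin neurons (r = 0.83, exact permutation p = 0.00982; Spearman's rho = 0.81, exact p = 0.0218). After adjustment over the 36 pairs the exact permutation p-values were 0.354 and 0.605, and 0 pairs passed. Without the 2 brains farthest from the median of *Tph2*, r was 0.50, so the relation rests largely on those brains. *Tph2* and *Dbh* gave r = 0.73 (exact permutation p = 0.0367; Spearman's rho = 0.69, exact p = 0.0694; adjusted p = 0.440 and 0.605), and 0.19 without those 2 brains. *Nr4a2* and *Tph2* went opposite ways (r = -0.74, exact permutation p = 0.0359; Spearman's rho = -0.62, exact p = 0.115; adjusted p = 0.440 and 0.605), with r at -0.67 without the 2 brains farthest from the median of *Nr4a2*.

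Levels of different genes were compared per kilobase of the gene length that the authors list. *Nr4a2* was the highest, at 9.78 ± 0.368 CPM per kilobase (SD over 8 brains), followed by *Slc18a2* at 8.32 ± 0.833 and *Th* at 2.76 ± 0.273 CPM per kilobase. *Nr4a2* was above *Slc18a2* in 7 of 8 brains, and their ranges overlapped. The ranges of *Slc18a2*, *Th* and *Slc6a4* did not overlap, so the order of these 3 genes was the same in every brain. Below them came *Slc6a4* at 1.08 ± 0.206, *Pitx3* at 0.892 ± 0.20, *Tph2* at 0.878 ± 0.158, *Slc6a3* at 0.764 ± 0.205, *Fev* at 0.717 ± 0.198 and *Dbh* at 0.524 ± 0.125 CPM per kilobase. Each of these overlapped its neighbour in the order. *Pitx3* was above *Tph2* in 5 of 8 brains and *Slc6a3* above *Fev* in 4 of 8, so these neighbours did not differ beyond their spread. By the means, *Slc6a3* took a different place in each diet, at 0.612 ± 0.0959 CPM per kilobase in CDD and 0.916 ± 0.166 in ND brains (SD, n = 4 each). This is its difference between the diets given above, divided by the gene length, and not a second result. *Fev* was at 0.759 and 0.674 and *Pitx3* at 0.922 and 0.861 CPM per kilobase in CDD and ND brains. The vesicular transporter gene was thus above the plasma membrane transporter genes *Slc6a3* and *Slc6a4* in every brain on this scale.

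The genes whose level followed *Th* most closely across the 8 brains, out of 15887 whose mean reached 1 CPM, were *Eif4g3* (Pearson's r = 0.94), *Pitpnm2* (0.93) and *Acsf3* (0.93). For *Tph2* they were *Gm10819* (0.98), *Slc12a4* (0.96) and *Tmem9b* (0.96), and for *Dbh* they were *Pla2g7* (0.95), *2610027F03Rik* (0.95) and *Mcc* (0.94). None of these 9 is among the monoamine genes. They are the best of many genes over few brains that share a library each, and 0 of them were called between the diets.

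The other enzymes and transporters of monoamine metabolism were read from the same fit. Of 20 such genes listed, 19 were tested, 0 were called higher and 1 lower (5.26% called, against 8.83% of all genes), and 15 of the 19 log2 fold changes were below 0. The gene called was *Aldh1a1*, which encodes a dehydrogenase that makes retinoic acid and also oxidises the aldehyde of dopamine and marks a subset of midbrain dopamine neurons. It was at 2.38, 2.43, 2.65 and 1.57 CPM in CDD replicates 1 to 4 and at 3.92, 4.03, 5.67 and 4.81 CPM in ND replicates 1 to 4. Every CDD brain was below every ND brain. *Aldh1a1* fell by 1.02 on the log2 scale (standard error 0.17, edgeR's adjusted p = 0.00163), and the call held with each of the 8 brains left out. Which cells of the whole brain held the *Aldh1a1* RNA was not measured.

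The enzymes shared by the members' pathways did not pass the test. *Ddc*, the decarboxylase that completes both dopamine and serotonin, was at 10.2 ± 0.261 CPM in CDD and 9.17 ± 0.709 CPM in ND brains (SD, n = 4 each), with a log2 fold change of 0.16 (edgeR's adjusted p = 0.254). *Gch1*, which starts the synthesis of the hydroxylases' cofactor tetrahydrobiopterin, was at 2.45 ± 0.268 and 2.86 ± 0.127 CPM, with a log2 fold change of -0.23 (edgeR's adjusted p = 0.340). *Slc6a2*, the noradrenaline transporter gene, was at 5.13, 5.80, 3.23 and 4.01 CPM in CDD replicates 1 to 4 and at 4.87 to 5.24 CPM in ND brains. As for *Dbh*, CDD replicates 3 and 4 were below the ND brains and CDD replicate 2 was the highest, and the log2 fold change was -0.14 (edgeR's adjusted p = 0.613). For *Maoa*, which encodes an enzyme that degrades monoamines, the log2 fold change was -0.01 (edgeR's adjusted p = 0.972).

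Transcription factors and other identity genes of dopamine, serotonin and noradrenaline neurons numbered 34. Of these, 4 were called higher and 2 lower (17.6%, against 8.83% of all genes). The 2 lower genes, *Aldh1a1* and *Htr1a*, also count among the called metabolism and receptor genes, so these sets overlap. With each gene counted once, 9 of 67 tested genes of metabolism, identity and receptors were called (13.4%). In the dopamine neuron list of 18 genes, 4 were higher and 1, *Aldh1a1*, lower. *Dlk1*, a Notch ligand homologue found in dopamine neurons and elsewhere, was at 88.2 ± 2.56 CPM in CDD and 76.6 ± 4.38 CPM in ND brains (SD, n = 4 each), with a log2 fold change of 0.20 (edgeR's adjusted p = 0.0120). *Sox6*, a transcription factor also used in cortical interneurons and progenitors, was at 107 ± 13.0 and 87.3 ± 3.77 CPM, with a log2 fold change of 0.30 (edgeR's adjusted p = 0.0172). The others, named after their values were seen, were *Lmx1a* (log2 fold change 0.42, edgeR's adjusted p = 0.0180) and *Otx2* (0.20, edgeR's adjusted p = 0.0327), whose proteins act in midbrain progenitors and in other regions. With each brain left out, the call of *Dlk1* held in 6 and that of *Sox6* in 5 of 8 fits, with losses without ND replicates 3 or 4 for both and also without ND replicate 1 for *Sox6*.

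The floor plate factor *Foxa2* was at 3.00 ± 0.422 and 2.64 ± 0.315 CPM in CDD and ND brains, and the midbrain gene *En1* at 14.2 ± 0.595 and 14.3 ± 1.46 CPM (SD, n = 4 each). Their log2 fold changes were 0.19 (adjusted p = 0.489) and -0.01 (edgeR's adjusted p = 0.967). *Lmx1b*, a homeodomain gene of dopamine and serotonin neurons, was at 14.9, 23.7, 10.9 and 13.1 CPM in CDD replicates 1 to 4 and at 10.2, 9.07, 10.2 and 9.45 CPM in ND replicates 1 to 4. Its diets did not overlap, and CDD replicate 2 was far above the rest. The log2 fold change was 0.68 (edgeR's adjusted p = 0.147), and without CDD replicate 2 it was 0.41, which was called (edgeR's adjusted p = 0.0218). It was also called without CDD replicate 3 (0.82, edgeR's adjusted p = 0.0322) and with DESeq2 (adjusted p = 0.0463).

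In the serotonin neuron list of 11 genes, 0 were called higher and 1, *Htr1a*, lower, a share near the 8.83% of all genes. *Htr1a*, which encodes the serotonin autoreceptor of these neurons and a receptor of many target neurons, was at 1.96, 4.06, 2.35 and 2.29 CPM in CDD replicates 1 to 4. It was at 4.42, 4.25, 3.90 and 4.38 CPM in ND replicates 1 to 4. CDD replicates 1, 3 and 4 were below every ND brain and CDD replicate 2 was among them. *Htr1a* fell by 0.67 on the log2 scale (edgeR's adjusted p = 0.0275), and the call held in 2 of 8 fits with a brain left out, those without CDD replicates 2 or 3. *Gata2* (log2 fold change 0.11, adjusted p = 0.776) and *Gata3* (0.17, edgeR's adjusted p = 0.185), the zinc finger genes of serotonin precursors, were not called.

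In the noradrenaline neuron list of 7 genes, 0 were called, and 6 of the 7 log2 fold changes were below 0. *Phox2a*, a homeodomain gene of noradrenaline neurons, was at 1.42 CPM in CDD replicate 2, the brain with the Hox signal, while ND brains averaged 0.392 ± 0.0675 CPM (SD, n = 4). The log2 fold change was 0.79 (edgeR's adjusted p = 0.291) and 0.16 without that brain.

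**Figure D5:**
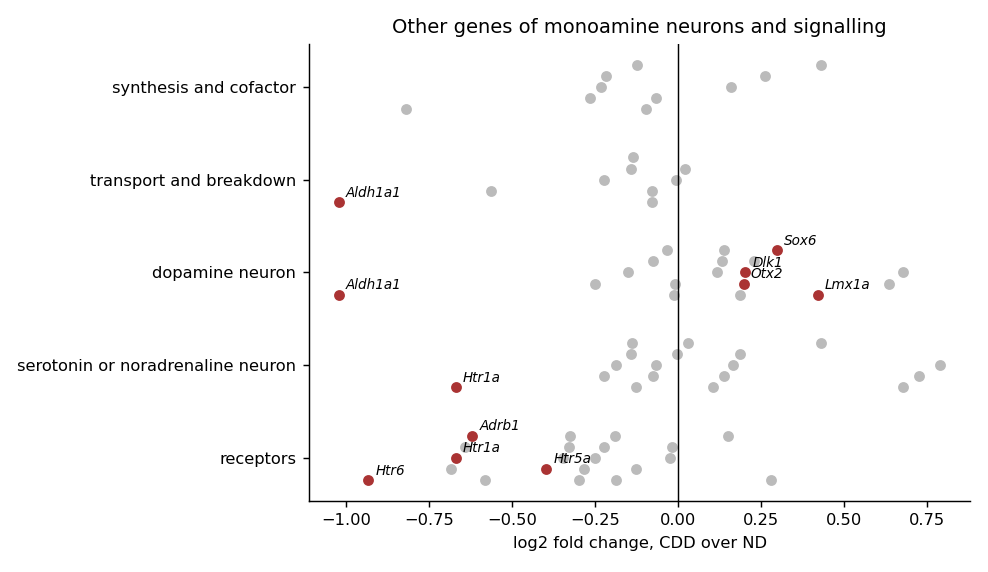
Log2 fold change, CDD over ND, of the tested genes of monoamine synthesis, transport and breakdown, of neuron identity and of the receptors, with 1 point for each gene in a row. Red points with names were called in edgeR's test. *Aldh1a1* and *Htr6* lie farthest to the left of the called genes, at -1.02 and -0.93, and 19 of the 21 receptor points are below 0.

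Among the receptors for these transmitters, 28 were listed and 21 tested. Of these, 0 were called higher and 4 lower (19.0%, against 8.83% of all genes and 4.59% called lower). The 4 include *Htr1a*, which is also in the serotonin neuron list. The log2 fold change was below 0 for 19 of the 21, with a median of -0.30, beside -0.0038 over all genes tested. In the same CDD brains the summed progenitor level was higher without overlap (1655 to 1985 against 1382 to 1526 CPM). Of 11 postmitotic neuron genes, 3 were called lower and 0 higher, while 5 log2 fold changes were above 0 (median -0.03). The summed neuron level overlapped between the diets (6312 to 6973 CPM in CDD and 6451 to 6723 CPM in ND brains). The part of progenitor and neuron content in the receptor levels was not tested. *Htr6*, a serotonin receptor gene, was at 1.18, 1.27, 0.929 and 0.965 CPM in CDD replicates 1 to 4 and at 2.43, 2.06, 2.08 and 1.71 CPM in ND replicates 1 to 4. Every CDD brain was below every ND brain, and the level fell by 0.93 on the log2 scale (standard error 0.19, edgeR's adjusted p = 0.00497). This call held with each of the 8 brains left out. *Htr5a*, another serotonin receptor gene, was at 4.71 ± 0.240 CPM in CDD and 6.20 ± 0.655 CPM in ND brains (SD, n = 4 each), with a log2 fold change of -0.40 (edgeR's adjusted p = 0.0308), called in 3 of 8 fits with a brain left out and lost without CDD replicates 1 or 2 or ND replicates 1, 3 or 4. *Adrb1*, the beta-1 adrenergic receptor gene, was at 3.43 ± 0.498 and 5.28 ± 0.905 CPM, with a log2 fold change of -0.62 (edgeR's adjusted p = 0.0119), called in 6 of 8 and lost without ND replicates 1 or 3.

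Of the 5 dopamine receptor genes, 3 were tested and 0 were called. The summed level of the 5 genes, 10.3 to 11.4 CPM in CDD and 12.6 to 13.9 CPM in ND brains, did not overlap between the diets. Of all single genes tested, 15% did not overlap. The log2 fold changes were -0.35 for *Drd1* (adjusted p = 0.0947), -0.25 for *Drd2* (adjusted p = 0.134) and -0.68 for *Drd4* (edgeR's adjusted p = 0.125), genes named after their values were seen. The share of each cell type in these whole brains was not measured.

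Cells outside the brain that also use monoamine genes were checked by their markers. Platelet genes, 4 of 9 tested, summed to 8.17 to 10.2 CPM in CDD and 8.13 to 10.8 CPM in ND brains, with 0 called. For mast cells, 6 of 7 listed genes were found and 2 tested, 0 were called, and the sum of 93.8 to 102 CPM in CDD and 95 to 98.4 CPM in ND brains was nearly all *Kit*, with *Cpa3* at 0.0319 and 0.0881 CPM on average in CDD and ND brains. For sympathetic neurons and chromaffin cells, 5 of 7 listed genes were found and 4 tested, with 0 called. The sum was 128 to 160 CPM in CDD and 141 to 148 CPM in ND brains. It was nearly all *Chga* (69.5 and 74.9 CPM on average in CDD and ND brains) and *Chgb* (62.7 and 65.0 CPM), while *Hand1* and *Hand2* were not found. The sum thus rests on 2 genes and does not show whether these cells were present. The adrenaline-making enzyme gene *Pnmt* was at 0.195 and 0.222 CPM on average and was not tested. *Kit*, *Cpa3*, *Chga*, *Chgb* and *Pnmt* were named after their values were seen.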

How the data were processed

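The authors sequenced poly-A RNA of whole brains, and their processing notes name HISAT2 2.0.5, featureCounts 1.5.0-p3 and DESeq2 1.20.0. The genome build and the strand setting are not given in the sources used here. They deposited raw counts per gene and brain, which were used. The authors also deposited a normalized signal, the count divided by a size factor of the library, which was not used. The FPKM values that the authors made from this signal and the gene length were not used either, nor were their columns of fold changes and p-values between the diets and the shorter lists drawn from them. Gene lengths are the authors' column. Samples were grouped by diet as labelled, with 4 brains each, 31770217 to 43121170 counts per library, and TMM factors of 0.967 to 1.01. No 2 brains of a diet had counts within sampling noise (chi-square per degree of freedom at least 3.53).

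Counts were filtered with filterByExpr, scaled by TMM and compared with the robust quasi-likelihood test of edgeR 4.0.16, with Benjamini-Hochberg adjustment over 19367 genes. A gene was called at an adjusted p under 0.05. All 9 genes passed the filter, so the permutation test planned for genes that failed was not needed. The fit was tested on simulated data. Alternatives were DESeq2 1.42.0, limma-voom (limma 3.58.1), RLE and upper-quartile scaling, no filter, a minimum of 10 counts for all brains, a block for the replicate number, an adjusted p under 0.01 and each brain left out. The fits ran in R 4.3.3. Tables were made with pandas 2.3.3 and NumPy 2.4.6 in Python 3.11.15, and figures with matplotlib 3.10.9. Correlations across brains used log2 CPM and exact permutation in SciPy 1.17.1.

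The 9 genes and all gene lists were chosen with earlier results of these data known. The shares of a list called, set beside those of all genes, are therefore descriptions and not tests. The genes named are the 9, *Ddc*, *Gch1*, *Slc6a2*, *Maoa*, *Foxa2*, *Lmx1b*, *En1*, *Gata2*, *Gata3* and *Phox2a*, up to 3 called genes with the smallest p in each list, and the 3 genes most correlated with *Th*, *Tph2* and *Dbh*. Of the genes first listed, 2 are not reported here and are left out of the lists. Promoters came from RefSeq (GRCm38.p6), and all 9 genes matched by symbol.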

Additional observations from a re-analysis of the deposited data

Results flagged for a closer look

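In a group of 4 brains, the highest or lowest value was set against Dixon's 95% limit. Of 122 groups examined, 8 were past it, where chance gives about 1 in 20, or 6.1. Among the 9 genes this was *Tph2* in ND replicate 3, at 2.46 CPM beside 2.78 to 2.81 CPM in the other ND brains. *Foxa2* was at 2.38 CPM in CDD replicate 2 beside 3.17 to 3.29 CPM. *Gata2* was at 7.51 CPM in ND replicate 4 beside 10.3 to 10.9 CPM. *Dlk1* was at 84.4 CPM in CDD replicate 3 beside 89.0 to 89.7 CPM, and *Sox6* at 92.9 CPM in ND replicate 2 beside 84.8 to 85.8 CPM. The summed dopamine neuron list was at 824.0 CPM in ND replicate 2 beside 785.8 to 791.5 CPM. The summed thalamus list was at 682 CPM in CDD replicate 4 beside 591 to 602 CPM, and the summed Hox list at 114.7 CPM in CDD replicate 2 beside 0.116 to 2.45 CPM.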

How the results depend on the processing

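An adjusted p under 0.01 left 477 genes called of 1710, 0 of the 9 genes, 2 of the 9 called pathway genes and 5 of the 18 called marker genes. Limma-voom called 0 of the 9. With each brain left out, 471 to 2495 genes, 0 to 1 of the 9, 2 to 14 pathway genes and 5 to 21 marker genes were called. The lowest numbers of all genes came without ND replicates 3 (471), 4 (615) or 1 (688). Without CDD replicate 2 the 1 gene called of the 9 was *Slc18a2*, and *Slc6a3* was not called. Direction reversed in some of these fits for *Nr4a2* (range -0.0126 to 0.0391), *Pitx3* (-0.0913 to 0.235), *Fev* (-0.0240 to 0.320), *Slc6a4* (-0.271 to 0.0419), *Dbh* (-0.355 to 0.0208), *Maoa* (-0.0407 to 0.0163), *En1* (-0.0617 to 0.0427) and *Gata2* (-0.0719 to 0.203), none of them called in any of these fits. The causes were not tested. The median of the 9 log2 fold changes was -0.15 to 0.0017 with a brain left out and -0.10 to -0.09 otherwise. With the replicate number as a block, 1812 genes and again *Slc6a3* alone of the 9 were called, and the call of *Hba-x* was lost. The deviations of same-numbered brains correlated at 0.11, -0.14, 0.13 and 0.25, and 3 of 4 numbers matched best with themselves. No label says that a replicate number is shared between the diets, so the brains were not paired. Depth limits *Fev*, *Dbh*, *Pitx3*, *Tph2* and *Slc6a3* most, at 25 to 127 counts per brain.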

Other observations

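Genes that mark brain regions and other cell types were read from the same fit. Of 76 tested marker genes, 14 were called higher and 4 lower (23.7%, against 8.83% of all genes). The lists were chosen with earlier results of these data known, so this share is a description. Among thalamus genes, *Olig3* rose by 1.10, *Gbx2* by 0.45 and *Tcf7l2* by 0.17 on the log2 scale (adjusted p = 0.00143, 0.0301 and 0.0499 in edgeR's test). The call of *Olig3* held in 8 of 8 fits with a brain left out, that of *Gbx2* in 4 (lost without CDD replicate 2 or ND replicates 1, 3 or 4) and that of *Tcf7l2* in 3 (lost without CDD replicates 3 or 4 or the same ND brains). With limma-voom, *Gbx2* (adjusted p = 0.0525) and *Tcf7l2* (0.0627) were not called, and *Tcf7l2* was also not called with RLE (0.0548) or upper-quartile scaling (0.0553). Among hypothalamus genes, a region that holds dopamine neurons, *Nkx2-1* rose by 0.24, *Otp* by 0.25 and *Sim1* by 0.46 (adjusted p = 0.0184, 0.0242 and 0.0315 in edgeR's test), with calls held in 5, 3 and 2 of 8 fits and all lost without ND replicates 1, 3 or 4. *Otp* was also lost without CDD replicates 1 or 2, and *Sim1* without CDD replicates 1 or 4 or ND replicate 2 or with limma-voom (adjusted p = 0.0597). The summed hypothalamus level was 116 to 122 CPM in CDD and 96.6 to 106 CPM in ND brains, without overlap, where 15% of all single genes tested did not overlap. It was mostly the called genes *Nkx2-1* (54.5 and 46.3 CPM on average in CDD and ND brains) and *Otp* (34.2 and 28.7 CPM). The sum thus rests largely on these genes and does not show how much hypothalamus each brain held. In the forebrain list *Emx2* rose by 0.26 and *Lhx6* fell by 0.22 (adjusted p = 0.0433 and 0.0473 in edgeR's test), each held in 2 of 8 fits. Those were the fits without CDD replicates 2 or 4 for *Emx2* and without CDD replicates 3 or 4 for *Lhx6*. With limma-voom, *Emx2* (adjusted p = 0.0675) and *Lhx6* (0.0577) were not called, nor was *Lhx6* with RLE scaling (0.0507).

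Of the progenitor genes, *Top2a* rose by 0.44, *Nes* by 0.47 and *Pax6* by 0.25 (adjusted p = 0.00287, 0.00344 and 0.00642 in edgeR's test), and all 3 calls held with each brain left out. The neuron genes *Snap25*, *Syp* and *Gap43*, of synaptic vesicle release and axon growth, fell by 0.23, 0.18 and 0.18 (adjusted p = 0.0246, 0.0253 and 0.0484 in edgeR's test), with calls held in 5, 4 and 1 of 8 fits. All were lost without ND replicates 1, 3 or 4, *Syp* also without CDD replicate 1, and *Gap43* in every fit but that without CDD replicate 2, and also with RLE scaling (adjusted p = 0.0558). Of the 11 neuron genes, 5 log2 fold changes were above 0. The summed neuron level overlapped, at 6312 to 6973 CPM in CDD and 6451 to 6723 CPM in ND brains. The embryonic globin genes *Hbb-y* and *Hba-x* rose by 2.24 and 1.67 (adjusted p = 0.00651 and 0.0208 in edgeR's test), while the summed red cell level was 764 to 1426 CPM in CDD and 827 to 2995 CPM in ND brains, with overlap. The call of *Hba-x* was lost without ND replicates 1 or 4 and with the replicate number as a block (edgeR's adjusted p = 0.0931). The part of any of these in the monoamine genes was not tested.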
